A study of Mus musculus with 6 samples.

Results

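Cholesterol synthesis, its regulation, and the export of cholesterol on lipoproteins were followed through 31 genes chosen by name for their known roles, among 22086 genes with counts. The members comprised 7 enzymes of the mevalonate branch, 3 that make and close squalene, 8 that act after lanosterol, 6 regulators, 5 genes of export and uptake, and 2 of cholesterol turnover. All 31 passed the filter on low counts, which left 13545 genes for testing. The study asked how the loss of connexin 43 (Cx43), the gap junction protein encoded by Gja1, changes the mRNAs that astrocytes of the mouse hippocampus are translating. Ribosomes of astrocytes were pulled down by translating ribosome affinity purification (TRAP), in which a GFP-tagged ribosomal protein is expressed in 1 cell type and captured with the mRNAs it carries. All animals were 6 weeks old and carried the transgene tg:Aldh1L1-RPL10aGFP together with Cx43 fl/fl, that is, both Gja1 alleles flanked by recombination sites. The 3 libraries labelled Cx43FL came from such littermates without Cre, and the 3 labelled Cx43KO from mice that also carried Gfap Cre. Cre was driven by a human GFAP promoter, which is active in precursor cells of other lineages as well as in astrocytes, and the tagged ribosomal protein by Aldh1l1 sequences of a bacterial artificial chromosome kept heterozygous. Both genotypes thus shared the tag and the floxed alleles and differed in Cre, and Cx43KO 1 below stands for the library labelled Cx43KO replicate 1, likewise for the others. Each extraction used whole hippocampi, and how many animals entered a library is not given in the sources used here.

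The adult brain makes nearly all of its own cholesterol, because lipoproteins of the blood do not cross the blood-brain barrier, and astrocytes supply much of it. Acetyl-CoA is built up to mevalonate, isoprenoids, squalene and lanosterol, and a chain of post-lanosterol enzymes then yields cholesterol. When sterols in the endoplasmic reticulum are scarce, SCAP escorts the transcription factor SREBP2 to the Golgi for cleavage and SREBP2 activates the synthesis genes, whereas sterol-bound INSIG proteins hold SCAP back. When oxysterols build up, the liver X receptors (LXR) activate ABCA1, ABCG1 and APOE, with which astrocytes load cholesterol onto lipoprotein particles that neurons take up through LRP1 and related receptors.

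Promoter sequences are shown first because the sterol-sensing and oxysterol-sensing factors act there. Of the 31 members, 26 had an entry in the RefSeq promoter table for build GRCm38.p6, and 250 bases before each start were searched on both strands. The CCAAT box, bound by NF-Y, which works beside SREBP2 at sterol genes, was present in 20 of the 26 members (76.9%) and in 37.5% of 27025 genes. A sterol regulatory element spelled TCACNCCAC, where N is any base, was found in Hmgcs1 alone among them (1.22% of genes). A spaced repeat bound by LXR, spelled GGTTA, any 5 bases and GGTCA after the Abca1 sequence had been seen, was found in windows of Abca1 and Srebf1 and in 0.0444% of genes. The match in Abca1 was thus fixed in advance by the choice of letters. No matches in the windows printed here shared bases, and a match is only a match of letters. The sequences below belong to Hmgcs1, which held the sterol element, and to the members with an entry whose 3 libraries labelled Cx43KO all lay above the 3 labelled Cx43FL. They run 5′ to 3′ on the gene's own strand and capitals mark the matches. They lie at chr13:119690101-119690350 (plus strand) for Hmgcs1, chr5:28071162-28071362 (plus) for Insig1, chrX:72918271-72918520 (plus) for Nsdhl, chr5:4104747-4104947 (minus) for Cyp51, chr4:53159896-53160145 (minus) for Abca1 and chr10:127621149-127621398 (minus) for Lrp1, each upstream of the transcript by which the gene was counted. The last 49 bases before the RefSeq start are left out for Cyp51 and Insig1, since the annotated gene begins there. The CCAAT of Cyp51 lies within them.
Hmgcs1: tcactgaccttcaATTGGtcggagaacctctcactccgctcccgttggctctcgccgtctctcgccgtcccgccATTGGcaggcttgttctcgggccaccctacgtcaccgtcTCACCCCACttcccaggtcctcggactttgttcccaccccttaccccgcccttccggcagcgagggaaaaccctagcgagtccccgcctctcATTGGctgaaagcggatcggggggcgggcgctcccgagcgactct
Insig1: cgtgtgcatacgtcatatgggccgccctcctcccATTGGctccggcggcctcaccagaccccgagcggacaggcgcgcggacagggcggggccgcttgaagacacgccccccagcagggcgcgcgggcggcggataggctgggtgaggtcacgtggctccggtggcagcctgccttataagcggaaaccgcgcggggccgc
Nsdhl: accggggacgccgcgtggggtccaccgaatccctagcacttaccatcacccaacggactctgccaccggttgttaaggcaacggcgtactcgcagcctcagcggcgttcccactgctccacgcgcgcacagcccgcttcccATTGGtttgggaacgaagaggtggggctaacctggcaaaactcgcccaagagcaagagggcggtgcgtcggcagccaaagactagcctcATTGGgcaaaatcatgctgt
Cyp51: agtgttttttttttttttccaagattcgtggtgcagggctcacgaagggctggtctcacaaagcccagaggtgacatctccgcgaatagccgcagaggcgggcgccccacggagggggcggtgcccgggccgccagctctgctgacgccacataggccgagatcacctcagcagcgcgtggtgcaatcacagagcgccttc
Abca1: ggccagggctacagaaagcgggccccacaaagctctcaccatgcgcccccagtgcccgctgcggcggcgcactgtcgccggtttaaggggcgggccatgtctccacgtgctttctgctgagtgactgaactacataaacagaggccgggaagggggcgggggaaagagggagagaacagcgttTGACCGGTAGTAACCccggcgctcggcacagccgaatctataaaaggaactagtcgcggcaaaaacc
Lrp1: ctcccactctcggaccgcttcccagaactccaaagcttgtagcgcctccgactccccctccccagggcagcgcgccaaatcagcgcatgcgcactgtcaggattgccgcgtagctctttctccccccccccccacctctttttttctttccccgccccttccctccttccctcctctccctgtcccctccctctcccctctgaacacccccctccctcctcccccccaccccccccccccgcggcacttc
Hmgcs1 held 3 CCAAT boxes in addition to the sterol element, which began 137 bases before the start. Nsdhl held 2 CCAAT boxes and Insig1 held 1, all read as ATTGG on the gene's strand. In Abca1 the LXR repeat began 67 bases before the start, and its window held no CCAAT box. For Lrp1 none of the 3 spellings occurred, which says only that these letters are not in its window. Among members not printed, the CCAAT box was also found in Pmvk, whose libraries labelled Cx43KO all lay below. It was found too in Mvk, Idi1, Tm7sf2, Ebp and Srebf1, whose fitted changes were below 0. A link between a match and the level was not tested.

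The libraries held 14787303 to 16056347 gene counts for those labelled Cx43FL and for Cx43KO 1, 23965596 for Cx43KO 2 and 34733473 for Cx43KO 3, so the last 2 were the deepest. Values below are CPM, counts scaled to the total of each library, with TMM factors that correct for a few genes taking much of a library. Gja1, the targeted gene, was at 92.0, 91.7 and 82.3 CPM in the libraries labelled Cx43FL 1 to 3 and at 87.2, 98.4 and 95.1 CPM in those labelled Cx43KO 1 to 3. It was therefore no lower under the label Cx43KO (log2 fold change 0.08, standard error 0.28, adjusted p = 0.949 by the quasi-likelihood test of edgeR, Benjamini-Hochberg adjusted), and every direction below is between libraries as labelled. Reads were counted per transcript only, so coverage of the deleted part cannot be read from them. The paper states that Cre activity in the brain was checked through β-galactosidase activity ahead of the experiments. All 12 astrocyte markers were counted, with a summed level of 18748 to 23160 CPM under Cx43FL and of 11911, 21875 and 33286 CPM in the libraries labelled Cx43KO 1, 2 and 3. The 12 neuronal markers summed to 2184 to 2931 CPM against 7797, 3077 and 4505 CPM, and the 12 of oligodendrocytes to 648 to 1140 CPM against 2947, 1171 and 697 CPM. Each sum covers the markers that passed the filter. For microglia these were 10 of 12, which summed to 31.3 to 60.0 CPM against 118.6, 112.0 and 248.6 CPM. The 7 choroid plexus markers summed to 459.9 CPM in Cx43FL 2, to 9940 and 15352 CPM in Cx43FL 1 and 3, and to 22209 to 32927 CPM under the label Cx43KO. The lists for oligodendrocyte precursors, endothelial, mural and ependymal cells stayed at or below 132.1 CPM in every library, no marker of any list passed the test, and Kcnj8 of mural cells was at 0 in all 6 libraries. In such bulk samples, fewer cells of a type and less RNA per cell cannot be told apart.

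**Figure D1:**
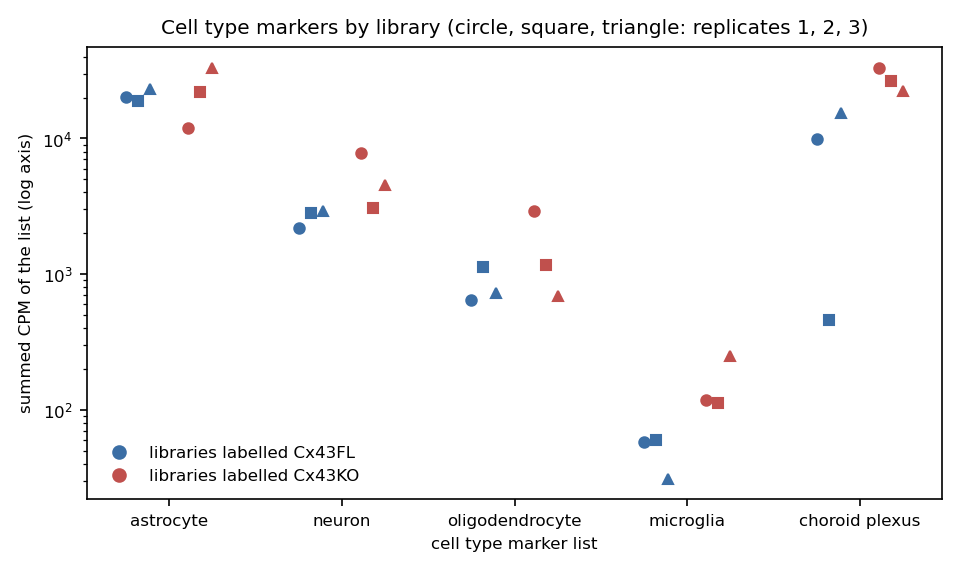
Summed CPM (log axis) of 5 cell type marker lists in each library, blue for libraries labelled Cx43FL and red for Cx43KO, with circle, square and triangle for replicates 1, 2 and 3. Cx43KO 1 has the lowest astrocyte sum (11911 CPM) and the highest neuronal and oligodendrocyte sums, and Cx43KO 3 has the highest astrocyte sum (33286 CPM).

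Levels of different members are compared per kb of the counted transcript, as CPM per kb. Apoe, which encodes the main apolipoprotein of astrocytes, stood first at 955.6 ± 109.8 CPM per kb under Cx43FL (SD, n = 3). It was above 99.7% of the genes tested. Pmvk (147.0 ± 16.7), Hmgcs1 (140.8 ± 15.6) and Lcat (120.7 ± 56.4 CPM per kb) followed, and these 3 did not differ beyond their spread. Msmo1 was the fifth at 85.5 ± 26.3 CPM per kb. From Fdft1 at 36.2 ± 6.15 down to Cyp51 at 19.7 ± 7.92 CPM per kb lay 11 members whose neighbours in the order overlapped within their SD. Of the regulators, Insig1 stood at 28.8 ± 6.10 CPM per kb, and lower levels were found for Srebf2 at 11.7 ± 1.70, Nr1h2 at 10.3 ± 0.813, Srebf1 at 6.52 ± 3.25 and Scap at 6.01 ± 4.19 CPM per kb. Abca1 (1.42 ± 0.455) and Abcg1 (1.28 ± 0.753 CPM per kb), the transporters that load cholesterol onto particles, were the lowest of the 31 and did not differ from each other beyond their spread. The place of Lss and Tm7sf2 in this order is uncertain, because Lss was counted on a retained-intron transcript of 6992 bases, and Tm7sf2 on a transcript of 753 bases that shares 70.7% of its exon bases with Vps51. Smaller shared stretches were present in Fdft1 (27.0%, with Ctsb), Scap (18.6%, with 5830462I19Rik), Cyp51 (4.2%, with Akap9) and Srebf1 (2.5%, with Rai1), and the other members shared none.

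**Figure D2:**
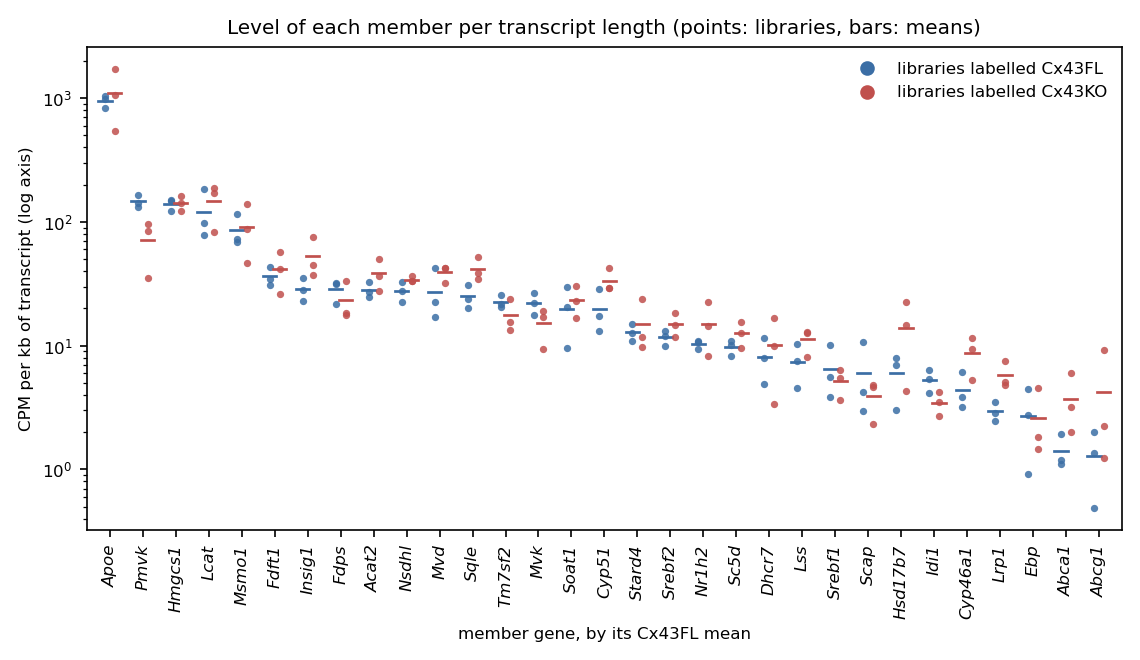
CPM per kb of transcript (log axis) of the 31 members in order of their mean under Cx43FL, with a point for each library and a bar for the mean of each label. Apoe stands alone at the top at 955.6 CPM per kb and Abca1 and Abcg1 close the order, at 1.42 and 1.28 CPM per kb.

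No member passed the test between the genotypes. edgeR called 0 of 31 members at adjusted p under 0.05 with a mean normalized count over 50, where 0.00738% of all genes tested were called higher under Cx43KO and 0% lower, and the smallest adjusted p of a member was 0.54. DESeq2 with a prior also called 0 of 31 (smallest adjusted p 0.201), with 0.827% of genes called higher and 0.124% lower. At an unadjusted p under 0.05 by edgeR, 4 members were higher (Sqle, Insig1, Abca1 and Lrp1) beside 5.66% of genes, and 1 was lower (Pmvk) beside 2.67% of genes. All 3 libraries labelled Cx43KO lay above all 3 labelled Cx43FL for 6 members (19.4%), namely Sqle, Cyp51, Nsdhl, Insig1, Abca1 and Lrp1, beside 8.08% of genes. The reverse held for Pmvk alone (3.23%), beside 7.45% of genes. The exact 2-sided permutation test gave p = 0.1 for each of these 7 members, the smallest p that 3 against 3 libraries allow. The fitted log2 fold change was above 0 for 23 members and below 0 for 8, with a median of 0.30 over the members and of 0.07 over all genes tested. By role, the median log2 fold change was -0.30 for the mevalonate branch, 0.60 for the squalene enzymes, 0.31 for the post-lanosterol enzymes, 0.30 for the regulators, 0.98 for export and uptake and 0.62 for turnover. The mevalonate branch was the only role with a median below 0. The median for export and uptake was the value of Lrp1, an uptake receptor, with Apoe and Lcat below it and Abca1 and Abcg1 above. The members were chosen with results of these data known, so no test was made over them as a list.

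**Figure D3:**
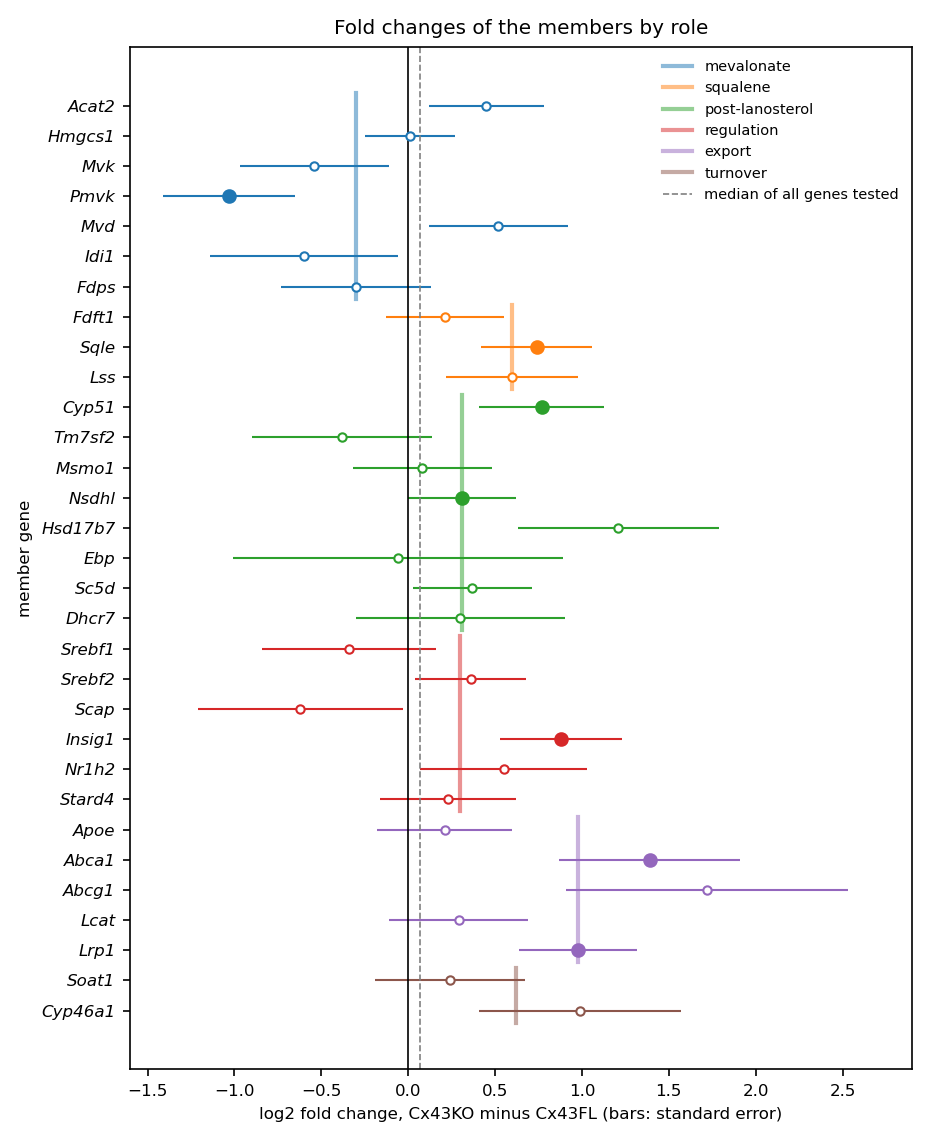
Fitted log2 fold change of each member, Cx43KO minus Cx43FL, with its standard error, coloured by role. Filled points mark the 7 members whose genotypes do not overlap. Vertical bars mark the median of each role, from -0.30 for the mevalonate branch to 0.98 for export and uptake (the value of Lrp1). The dashed line marks the median of all genes tested (0.07).

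In the mevalonate branch, Hmgcs1, the synthase that makes HMG-CoA, was at 398.8, 480.4 and 491.5 CPM in the libraries labelled Cx43FL 1 to 3 and at 395.0, 458.2 and 526.3 CPM in those labelled Cx43KO 1 to 3. These ranges overlapped almost fully (log2 fold change 0.01, standard error 0.26), and a 95% interval from that error with 4 degrees of freedom ran from -0.72 to 0.74. Pmvk, the phosphomevalonate kinase, on chromosome 3 from 89454541 to 89469013, was at 171.1, 197.3 and 158.2 CPM under Cx43FL and at 41.8, 101.6 and 114.6 CPM under Cx43KO. Its 3 values labelled Cx43KO all lay below, with Cx43KO 1 far below the other two, and the fitted difference was -1.03 on the log2 scale (standard error 0.38, adjusted p = 0.541 by the quasi-likelihood test of edgeR, Benjamini-Hochberg adjusted). Mvk, the kinase one step earlier, was at 44.3, 29.5 and 36.9 CPM against 15.6, 28.3 and 31.9 CPM. Cx43KO 1 and 2 were below the range of Cx43FL and Cx43KO 3 within it, and the log2 fold change was -0.54 (standard error 0.43). Idi1, the isomerase that readies the isoprenoid units, had 2 of 3 libraries labelled Cx43KO below the range of Cx43FL (8.13, 12.7 and 10.7 CPM against 19.2, 12.5 and 16.2 CPM; log2 fold change -0.60, standard error 0.54). Fdps, which joins the units to farnesyl diphosphate, was at 26.9 CPM in Cx43FL 1 and at 39.3 CPM or more in Cx43FL 2 and 3, against 22.8, 21.8 and 41.4 CPM (log2 fold change -0.30, standard error 0.43). Mvd, the decarboxylase between Pmvk and Idi1, pointed the other way, with 75.1, 56.4 and 74.7 CPM against 39.6, 29.9 and 73.9 CPM (log2 fold change 0.52, standard error 0.40). So did Acat2, the acetoacetyl-CoA thiolase at the entrance, with 82.6, 62.6 and 113.3 CPM against 61.1, 55.2 and 73.2 CPM (log2 fold change 0.45, standard error 0.33), where Cx43KO 2 stayed inside the range of Cx43FL. Neighbouring steps of the branch thus carried fitted changes of opposite sign, none of them past the test.

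Sqle, the squalene epoxidase, lies on chromosome 15 from 59315077 to 59331192. Its level was 65.8, 55.9 and 85.6 CPM in the libraries labelled Cx43FL 1 to 3 and 105.9, 96.0 and 144.4 CPM in those labelled Cx43KO 1 to 3. All 3 of the latter were higher, Cx43KO 3 most of all (log2 fold change 0.74, standard error 0.32, adjusted p = 0.587 by the quasi-likelihood test of edgeR, Benjamini-Hochberg adjusted). Lss, which closes the ring to lanosterol, was at 52.3, 31.8 and 71.6 CPM against 90.7, 57.1 and 88.3 CPM, with Cx43KO 2 inside the range of Cx43FL (log2 fold change 0.60, standard error 0.38). Fdft1, the squalene synthase, spread on both sides of its Cx43FL range, at 88.8, 99.0 and 123.0 CPM against 74.6, 119.8 and 164.2 CPM (log2 fold change 0.21, standard error 0.34). Without the library labelled Cx43KO 3 the value for Fdft1 was -0.09.

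After lanosterol, Cyp51, the demethylase that acts on it, was at 52.0, 112.1 and 67.9 CPM in the libraries labelled Cx43FL 1 to 3 and at 113.9, 114.8 and 167.2 CPM in those labelled Cx43KO 1 to 3. The genotypes did not overlap, but Cx43FL 2 lay just under the lowest 2 libraries labelled Cx43KO (log2 fold change 0.77, standard error 0.36, adjusted p = 0.60 by the quasi-likelihood test of edgeR, Benjamini-Hochberg adjusted). Nsdhl, a dehydrogenase of the demethylation complex, on chromosome X from 72918557 to 72958514, was at 60.1, 48.4 and 70.9 CPM against 71.7, 71.9 and 78.8 CPM. The gap between the genotypes was again narrow, between Cx43FL 3 and Cx43KO 1 (log2 fold change 0.31, standard error 0.31). Hsd17b7, the reductase of the same complex, had the largest fitted change of the enzymes at 1.21 (standard error 0.58, adjusted p = 0.60 by edgeR's test as above), but its libraries overlapped, at 36.9, 14.0 and 32.0 CPM against 67.6, 19.7 and 104.0 CPM. Msmo1, the methyl oxidase of the complex, was at 139.4, 236.7 and 148.2 CPM against 95.5, 177.7 and 282.6 CPM, a spread from below to above the Cx43FL range. Its log2 fold change of 0.08 (standard error 0.40) was -0.35 without Cx43KO 3 and -0.08 when libraries were scaled to their astrocyte markers. Sc5d, the desaturase near the end of the path, was at 39.5, 51.8 and 48.6 CPM against 45.9, 60.4 and 73.8 CPM (log2 fold change 0.37, standard error 0.34). Dhcr7, the last reductase of this set, ran from 13.7 to 32.7 CPM under Cx43FL and was at 9.50, 28.2 and 47.1 CPM under Cx43KO, and the log2 fold change of 0.30 (standard error 0.60) became -0.28 without Cx43KO 3. Ebp, the sterol isomerase, was counted at 1.59 to 7.84 CPM under Cx43FL and 2.55 to 7.93 CPM under Cx43KO, the lowest CPM range of the enzymes (log2 fold change -0.06, standard error 0.95). Tm7sf2, which reduces the sterol ring and overlaps Vps51 as stated, was at 15.6, 16.4 and 19.3 CPM against 17.8 CPM in Cx43KO 1 and at most 11.8 CPM in Cx43KO 2 and 3, and its log2 fold change of -0.38 (standard error 0.52) became 0.46 when all its transcripts were added up.

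**Figure D4:**
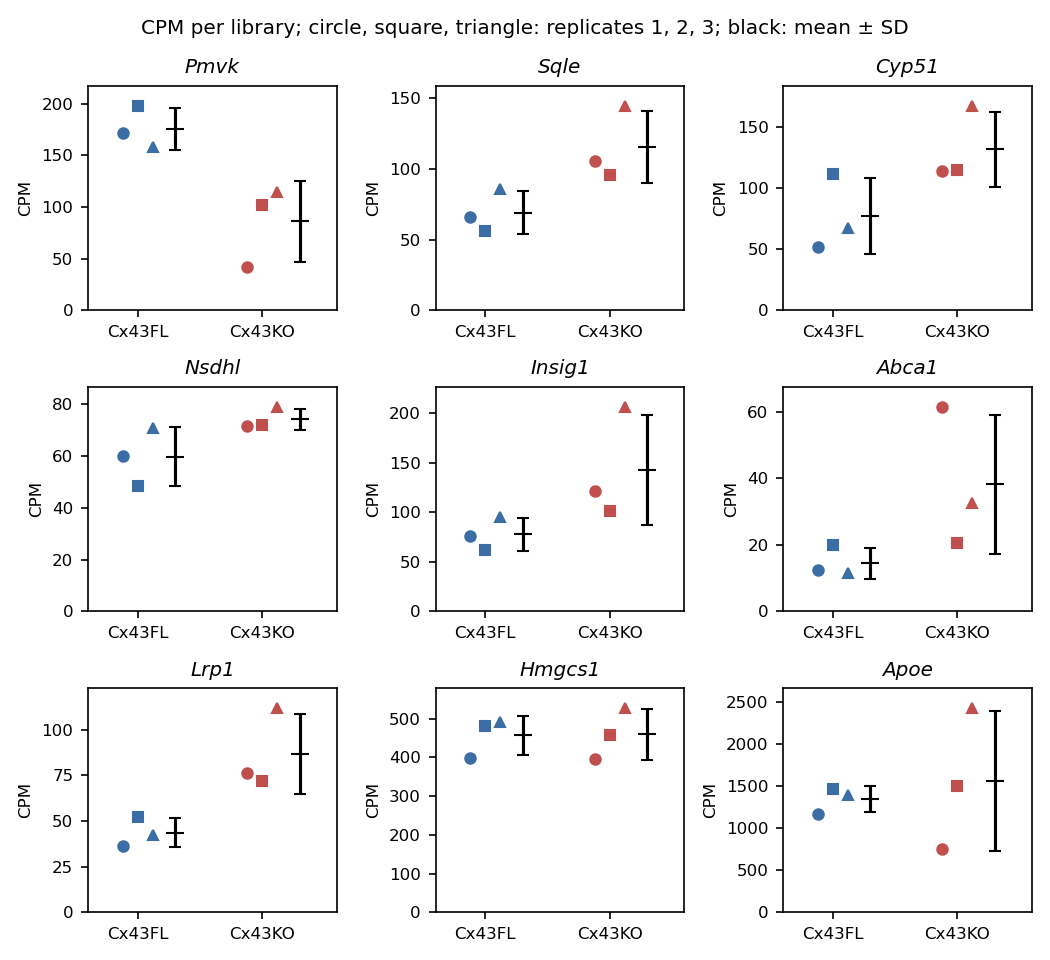
CPM per library of the 7 members whose genotypes do not overlap, and of Hmgcs1 and Apoe, which do, with circle, square and triangle for replicates 1, 2 and 3 and the mean ± SD in black; axes start at 0. Pmvk is lower in each library labelled Cx43KO, the other 6 are higher, and Cx43KO 3 is the highest point for Sqle, Cyp51, Nsdhl, Insig1, Lrp1, Hmgcs1 and Apoe, whereas Abca1 is highest in Cx43KO 1.

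Among the regulators, Insig1, the sterol-bound anchor of SCAP and itself a target of SREBP2, lies on chromosome 5 from 28071363 to 28078662. It was at 76.0, 62.0 and 94.8 CPM in the libraries labelled Cx43FL 1 to 3 and at 121.1, 100.8 and 205.5 CPM in those labelled Cx43KO 1 to 3. Every library labelled Cx43KO was higher (log2 fold change 0.88, standard error 0.35, adjusted p = 0.556 by the quasi-likelihood test of edgeR, Benjamini-Hochberg adjusted). Its paralog Insig2, which serves the same anchoring role, was at 160.8, 121.0 and 100.6 CPM against 109.4, 106.3 and 69.9 CPM (log2 fold change -0.42, standard error 0.32). The ratio of Insig1 to Insig2 was therefore 0.473, 0.513 and 0.943 against 1.11, 0.948 and 2.94, without overlap but with Cx43FL 3 and Cx43KO 2 nearly equal. Srebf2, which encodes SREBP2, was at 67.2, 60.6 and 50.1 CPM against 75.1, 60.0 and 92.7 CPM, and only Cx43KO 2 fell within the Cx43FL range (log2 fold change 0.36, standard error 0.32). Srebf1, whose products favour fatty acid genes, was at 16.4, 43.5 and 24.2 CPM against 15.6, 23.4 and 27.5 CPM, and Scap, the escort, at 12.6, 45.6 and 17.9 CPM against 9.81, 19.5 and 20.3 CPM. Both were highest in Cx43FL 2, and their log2 fold changes of -0.34 and -0.62 were 0.11 and 0.10 without that library. Nr1h2, which encodes LXRβ, was at 18.7 to 21.6 CPM under Cx43FL and at 16.6, 29.0 and 44.8 CPM under Cx43KO (log2 fold change 0.55, standard error 0.48). Stard4, a carrier of cholesterol between membranes, was high in Cx43KO 1 only, at 120.6 CPM against 55.1 to 76.7 CPM under Cx43FL and at most 60.0 CPM in the other two libraries labelled Cx43KO, so that its log2 fold change of 0.23 was -0.25 without that library.

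In export and uptake, Apoe was at 1172, 1470 and 1394 CPM in the libraries labelled Cx43FL 1 to 3 and at 757.5, 1499 and 2424 CPM in those labelled Cx43KO 1 to 3. The libraries labelled Cx43KO thus fell below, next to and above the Cx43FL range, and the log2 fold change of 0.21 (standard error 0.39, 95% interval -0.86 to 1.28) was -0.25 without Cx43KO 3. For each 1000 CPM of summed astrocyte markers, Apoe was at 58.5, 78.4 and 60.2 CPM against 63.6, 68.5 and 72.8 CPM, and the spread among the libraries labelled Cx43KO was then no wider than among the others. Abca1, on chromosome 4 from 53030787 to 53159895, was at 12.3, 19.9 and 11.4 CPM against 61.3, 20.7 and 32.5 CPM. Cx43KO 2 was only just above Cx43FL 2, and Cx43KO 1 was the highest (log2 fold change 1.39, standard error 0.52, adjusted p = 0.550 by the quasi-likelihood test of edgeR, Benjamini-Hochberg adjusted). Without Cx43KO 1 the log2 fold change of Abca1 was 0.87. Abcg1, its partner in efflux, had the largest fitted change of all members at 1.72 (standard error 0.81, adjusted p = 0.60 by edgeR's test as above), yet its values were 7.97, 2.85 and 11.6 CPM against 53.8, 13.0 and 7.22 CPM. It rested on Cx43KO 1, without which the log2 fold change was 0.43 and which also had the highest neuronal, oligodendrocyte and choroid plexus sums, whose part in the result was not tested. Lrp1, the large endocytic receptor for APOE particles, on chromosome 10 from 127538161 to 127621148, was at 36.4, 52.5 and 42.3 CPM against 76.1, 71.7 and 111.7 CPM. All 3 libraries labelled Cx43KO stood clear of the others, with the lowest adjusted p of the members (log2 fold change 0.98, standard error 0.34, adjusted p = 0.540 by edgeR's test as above). Leaving out each library in turn kept the log2 fold change of Lrp1 between 0.76 and 1.12. Lcat, which esterifies cholesterol on the particle, was at 105.5, 247.9 and 132.4 CPM against 112.0, 229.3 and 251.9 CPM (log2 fold change 0.29, standard error 0.40). In turnover, Cyp46a1, the mainly neuronal hydroxylase that lets cholesterol leave the brain, was at 6.78, 12.9 and 8.08 CPM against 24.2, 19.9 and 11.2 CPM (log2 fold change 0.99, standard error 0.58), and was highest in Cx43KO 1, as were the neuronal markers, whose part was not tested. Soat1, which stores cholesterol as esters, was at 86.4, 28.0 and 59.8 CPM against 49.0, 67.4 and 89.2 CPM (log2 fold change 0.24, standard error 0.43).

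Set against the mean of Cx43FL, the median deviation of the 31 members on the log2(CPM + 0.5) scale was -0.01, 0.21 and 0.73 in the libraries labelled Cx43KO 1, 2 and 3, while that of all genes tested was 0.02 in each. Cx43KO 3 was above the Cx43FL range for 22 members (71.0%, and 30.7% of all genes), and it was the highest of the 3 libraries labelled Cx43KO for 23 members (74.2%, and 35.4% of all genes). The 18 synthesis enzymes followed the same order, with medians of -0.11, 0.04 and 0.70. Cx43KO 1 was the lowest of the 3 for 17 members (54.8%, and 40.6% of all genes), whereas the medians of the genes of export and uptake were 0.81, 0.60 and 0.86. The median SD of log2(CPM + 0.5) among replicates was 0.31 for the members under Cx43FL and 0.53 under Cx43KO, and 0.42 and 0.65 for all genes tested. The order of the 3 libraries for the members was also that of their summed astrocyte markers and of their gene counts, and its part in the result was not tested. For each 1000 CPM of astrocyte markers, 4 members lay above without overlap (Sqle, Insig1, Nr1h2 and Lrp1), beside 4.36% of all genes on that scale, and 2 below (Mvk and Pmvk), beside 6.55% of all genes, so that Sqle, Insig1, Lrp1 and Pmvk did not overlap on either scale.

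**Figure D5:**
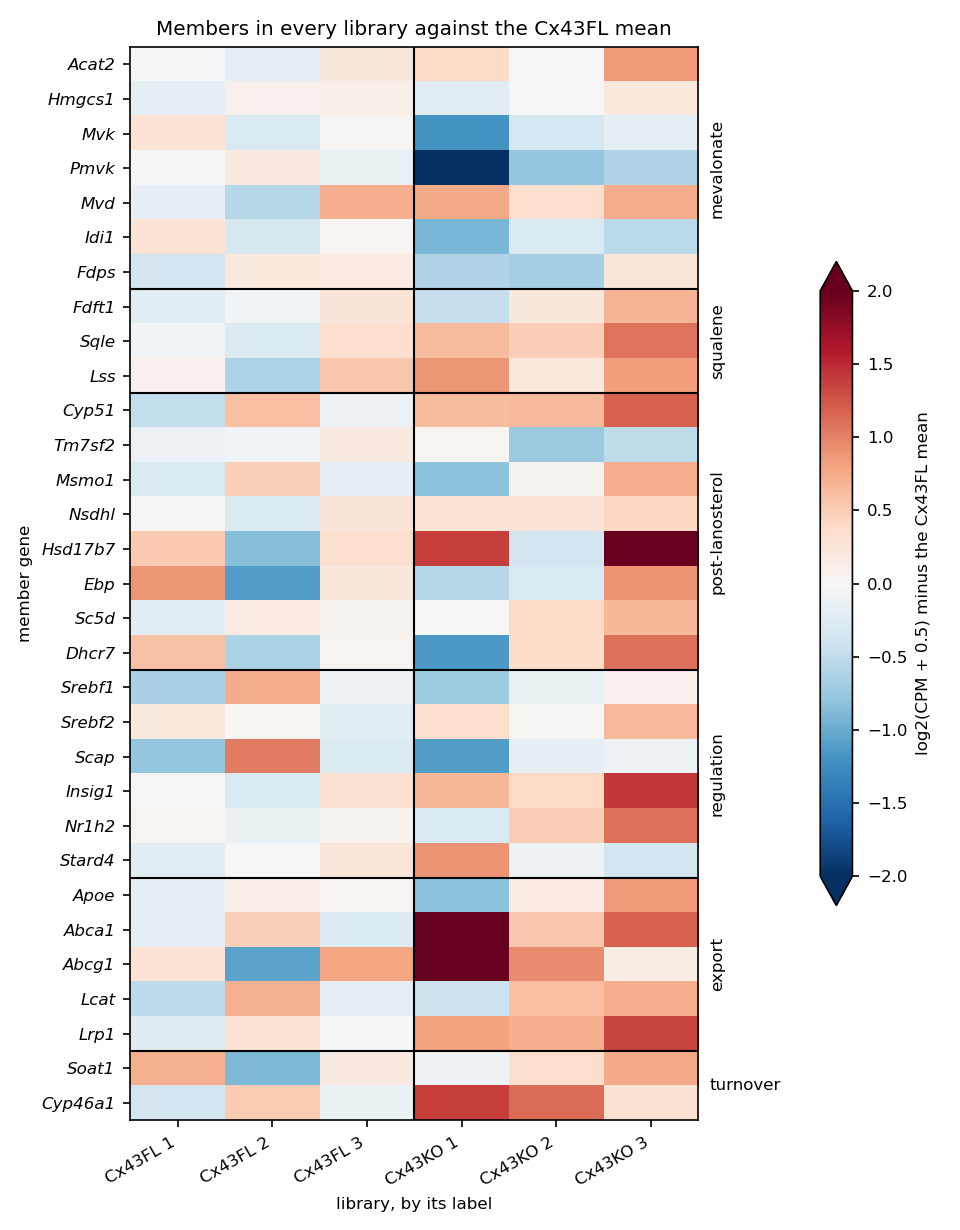
Each member in each library as log2(CPM + 0.5) minus its mean under Cx43FL, grouped by role; the colour scale ends at -2 and 2. The column of Cx43KO 3 is above that mean for 25 of 31 members, that of Cx43KO 1 for 15.

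The rest of the pathway was followed through 51 companion genes in 3 lists, of which 48 passed the filter (Soat2, Cyp27a1 and Ch25h did not). edgeR called 0 of the 48, the median log2 fold change was 0.31, 7 were higher and 0 lower at an unadjusted p under 0.05 (5.66% and 2.67% of all genes), and 8 lay above (16.7%) and 2 below (4.17%) without overlap, beside 8.08% and 7.45% of all genes. Of 17 other genes of synthesis and regulation, 11 had a fitted change above 0 (median 0.48), of 16 of transport and turnover 13 (median 0.77), and of 15 of fatty acid synthesis 11 (median 0.10), where 54.4% of all genes tested were above 0. Set against the mean of Cx43FL, the median deviations in Cx43KO 1, 2 and 3 were 0.61, 0.03 and 0.60 for synthesis and regulation. They were 0.97, 0.60 and 0.37 for transport and turnover, and 0.12, 0.06 and 0.13 for fatty acid synthesis. None of the 3 lists rose in the order Cx43KO 1, 2 and 3 that the members followed. DESeq2 with a prior called 2 companions, beside 0.827% of all genes called higher and 0.124% lower. Of these 2, the lipoprotein lipase Lpl is named here after its values were seen. Lpl was at 5.40, 4.18 and 11.9 CPM in the libraries labelled Cx43FL 1 to 3 and at 41.4, 14.9 and 41.4 CPM in those labelled Cx43KO 1 to 3. All 3 of the latter were higher. The log2 fold change was 2.19 by edgeR (standard error 0.62, adjusted p = 0.49) and 1.67 by DESeq2 with a prior (adjusted p = 0.0344). Summed markers of neurons, microglia and choroid plexus were also higher in every library labelled Cx43KO, while those of astrocytes and oligodendrocytes overlapped. Their part in the result for Lpl was not tested. Nr1h3, which encodes LXRα, was counted on a retained-intron transcript and had a log2 fold change of -0.25 (standard error 0.68).

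With 3 libraries a genotype, a common biological coefficient of variation of 0.60 and adjusted p-values of 0.54 and more, neither a change nor its absence was shown for a member. The paper calls the libraries independent, but nothing states that they came from separate animals, so the p-values measure the spread between libraries.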

How the data were processed

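Polysomal RNA was amplified with the NuGEN Ovation system and sequenced on an Illumina HiSeq, and bases were called with bcl2fastq 1.8.4 per the labels. The authors filtered reads, aligned them to mm10 (Ensembl annotation) with STAR, removed reads with several matches and counted overlaps with HTSeq 0.5.3. The deposited files hold raw counts per Ensembl transcript, in which a read is counted on every transcript of a gene that it overlaps, so counts of transcripts of 1 gene are not independent. Of 75466 transcripts, 73157 matched GENCODE M21 (GRCm38), and the 2309 others held 1.60% to 1.78% of counts. For each gene, the transcript with most counts over the 6 libraries was taken in place of a gene count.

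Counts were scaled by TMM, filtered with filterByExpr and tested with edgeR 4.0.16 (glmQLFit, glmQLFTest, R 4.3.3) on genotype alone, with Benjamini-Hochberg adjustment over 13545 genes. A gene was called at adjusted p under 0.05 with a mean normalized count over 50 in the higher group. The standard error was taken from the fold change and its F statistic. DESeq2 1.42.0 was the alternative tool, and the paper itself used an earlier version of DESeq2 for its gene lists. Single members were also compared by the exact 2-sided permutation test on log2(CPM + 0.5). Scripts used python 3.11.15, pandas 2.3.3, scipy 1.17.1 and matplotlib 3.10.9, and the tests were checked on simulated counts. Alternatives were other scalings, filters, the summing of transcripts, a replicate block and leaving out each library.

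The 31 members, the 51 companion genes and the cell type lists were chosen with earlier results of these data known. Named are all members, Gja1, and of the companions Nr1h3, Insig2 and any that passed the call rule; the results of some other companions covered by this rule are not reported here. Promoters came from RefSeq (GRCm38.p6); Fdps, Fdft1, Sqle, Stard4 and Abcg1 had no entry. At 14787303 gene counts, the shallowest depth, 3 counts correspond to 0.203 CPM. Intervals over 3 libraries cover the spread between libraries, and amplified reads without molecular identifiers are not independent molecules.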

Additional observations from a re-analysis of the deposited data

How the results depend on the processing

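edgeR called 1 gene of the whole table, and 0 when libraries were scaled to their astrocyte markers, when at least 10 counts were required in every library or when transcripts were added up. DESeq2 called 174 genes without a prior and 130 with one. The count of members called was 0 under every alternative, while companions called numbered 2 by DESeq2 with and without a prior. Members lying wholly below numbered 2 rather than 1 under astrocyte marker scaling (Mvk and Pmvk) and with transcripts added up (Pmvk and Idi1). Nsdhl and Cyp51 overlapped under the filter of 10 counts, Cyp51 with transcripts added up, and both with Abca1 under astrocyte marker scaling, which moved the median of all genes to 0.18. Leaving out each library in turn gave 0 to 11 genes called (11 without Cx43KO 1). The median log2 fold change of the members then ran from 0.15 (without Cx43KO 3) to 0.45 (without Cx43KO 1). Members wholly above numbered 4 to 11 (11 without Cx43KO 2) and wholly below 1 to 3 (3 without Cx43FL 2 and without Cx43KO 3). Full separation is easier with fewer libraries. The share of all genes was not counted for these sets, nor with transcripts added up, so these counts say nothing particular about the members.

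Signs of small fold changes turned in several cases, and the cause was not tested. Msmo1 was -0.08 under astrocyte marker scaling, and Tm7sf2 was 0.46 with transcripts added up. With each library left out, the log2 fold change ran from -0.10 to 0.10 for Hmgcs1, -0.09 to 0.45 for Fdft1, -0.35 to 0.39 for Msmo1, -0.73 to 0.49 for Ebp, -0.28 to 0.71 for Dhcr7, -0.63 to 0.11 for Srebf1, -0.96 to 0.10 for Scap, -0.25 to 0.47 for Stard4, -0.25 to 0.54 for Apoe, -0.11 to 0.63 for Soat1 and -0.96 to 0.25 for Nr1h3.

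Between the genotypes, same-numbered deviations correlated at 0.0114, -0.0040 and -0.0547. Libraries of different numbers were not compared in this way, so these values do not settle whether shared replicate numbers pair the libraries. With the replicate block, edgeR called 2 genes and 0 members, the median of the members was 0.33, Msmo1 was -0.02 and Ebp was 0.07.

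Depth was lowest in the libraries labelled Cx43FL and in Cx43KO 1, and Ebp, at 1.59 to 7.93 CPM, rests on the fewest counts of the members.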
